A study of Homo sapiens with 10 samples.

Results

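Genes of homologous recombination and of the Fanconi pathway were followed in MiaPaCa2 cells, a human pancreatic carcinoma line, during exposure to products of pancreatic stellate cells. The genes were chosen by name from a list of 9, and a gene was measured through every probe set whose single symbol in the array platform's annotation was that gene. This gave 6 of the 9, BRCA1, RAD51AP1, FANCI, EXO1, BLM and BRIP1, with 10 probe sets, out of 19775 genes measured. BRCA2, FANCA and FANCD2 were not analysed here. The exposed cells, called treated below, received supernatant of stellate cells that had themselves been primed with pooled supernatant of tumour cell lines, and were harvested after 1, 2, 3, 4, 5, 6, 7 or 24 h. The controls were cells of the same line, labelled as control at 0 h and at 24 h. Their titles carry the same treatment wording as the treated arrays and do not say what the controls received. Total RNA of each was hybridised to 1 Affymetrix U133 Plus 2.0 array, 8 treated and 2 control in all, so no time has a replicate. The labels do not say whether the arrays came from different culture dishes, so p-values reflect no more than the spread among these arrays, which may be technical.

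Homologous recombination repairs broken chromosomes by copying the intact sister chromatid, and it therefore works during S and G2 phase. A nuclease cuts the ends back, BRCA1 and its partners prepare the end for strand exchange, and helicases take the joined molecules apart. The Fanconi pathway removes crosslinks between the DNA strands, and it marks stalled forks by attaching ubiquitin to the FANCI-FANCD2 pair and then hands the break to recombination. Genes of both pathways are known to be transcribed from late G1 onward under E2F factors, which bind short GC-rich elements close to the start of transcription.

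Because the measured genes moved together, the stretches around their start sites are shown. They run from base -80 to base 49, counted from the start, and come from RefSeq promoter windows on GRCh38.p14. Capitals mark the 7-letter E2F core, which is TTGGCGC or TTGCCGC or TTCGCGC or TTCCCGC on either strand. RefSeq windows were found for 5 of the 6 genes, and FANCI, whose gene spans chr15:89243979-89317259 on the same build, is named only. The EXO1 stretch lies at chr1:241848124-241848253 on the plus strand, that of RAD51AP1 at chr12:4538810-4538939 on the plus strand and that of BLM at chr15:90717266-90717395 on the plus strand. The BRCA1 stretch lies at chr17:43125315-43125444 and that of BRIP1 at chr17:61863479-61863608, both on the minus strand.
EXO1: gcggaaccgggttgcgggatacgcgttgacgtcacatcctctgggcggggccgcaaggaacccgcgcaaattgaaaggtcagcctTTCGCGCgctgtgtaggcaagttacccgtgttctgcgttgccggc
RAD51AP1: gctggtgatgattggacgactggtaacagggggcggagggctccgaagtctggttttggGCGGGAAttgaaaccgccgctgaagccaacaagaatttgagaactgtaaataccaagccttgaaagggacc
BLM: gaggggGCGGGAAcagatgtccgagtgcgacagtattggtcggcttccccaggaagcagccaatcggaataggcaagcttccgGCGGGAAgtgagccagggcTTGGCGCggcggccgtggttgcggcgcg
BRCA1: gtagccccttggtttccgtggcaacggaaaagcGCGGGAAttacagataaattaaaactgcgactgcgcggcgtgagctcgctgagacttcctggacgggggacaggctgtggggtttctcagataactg
BRIP1: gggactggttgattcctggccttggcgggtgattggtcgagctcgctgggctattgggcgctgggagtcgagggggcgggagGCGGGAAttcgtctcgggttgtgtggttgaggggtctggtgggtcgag

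Each of the 5 genes held at least 1 E2F core in a window from 250 bases before to 50 bases after a start, and BLM held 3. Among all 27305 genes with a window, 15.3% had such a core in a window. The core was present in 5 of the 7 windows of these genes, since EXO1 and BRCA1 each have a further start without it, against 13.0% of all 35116 windows. The longer 8-letter site, which is the core preceded by 1 more T and so overlaps it, was found only in EXO1 among the 5 genes, as TTTCGCGC, and in 3.99% of all genes. A CCAAT box, read as CCAAT on either strand, stood in 4 of the 5 genes and in 39.7% of all genes. The CHR element of late cell cycle genes, read as TTTGAA on either strand, stood in 1 of the 5, BRIP1, and in 18.2% of all genes. These are matches of letters and not measured binding.

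The arrays had similar distributions after the authors' RMA, with medians from 5.49 to 5.61 on the log2 scale. The 2 h treated array was compressed, with an upper quartile of 7.50 against 7.63 to 7.76 on the other 9. Over all 54675 probe sets the 1 h treated array correlated at r = 0.994 with the 24 h control and at 0.989 with the 0 h control, whereas the 24 h treated array correlated at 0.992 with the 24 h control and at 0.995 with the 0 h control. The epithelial keratins KRT8, KRT18 and KRT19 were measured at mean log2 intensities of 11.86, 14.09 and 11.58. EPCAM and CDH1 were at 3.04 and 3.58, under the level of 5.79 used below as the filter on expression. The summed intensity of 9 stellate cell and fibroblast markers was 3349 to 5010 in treated and 5476 to 5806 in control arrays, with 5 of the 9 under the filter level. COL1A2 was the highest of the 9 and weighs most in this sum. Its log2 intensity was 12.16 and 12.23 in the 0 h and 24 h controls and averaged 11.84 at 1 to 3 h. ACTA2 averaged 9.09 at 1 to 3 h, above its 8.51 and 8.88 in those controls. The summed intensity of 4 leukocyte and endothelial markers was 164 to 279 in treated and 309 to 315 in control arrays. CD14 was the highest of the 4, at 7.72 and 7.63 in those controls and 7.04 on average at 1 to 3 h. PECAM1 averaged 6.47 at 1 to 3 h against 6.06 and 6.34, so the sums do not describe every marker. Their part in the results was not tested.

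All 6 genes rose over the first 7 h of exposure. On the probe sets used, levels were lowest at 2 or 3 h and highest of these hours at 7 h. They differed between the lowest and highest hour by 2.08-fold in RAD51AP1 to 4.68-fold in EXO1. Of the other FANCI probe sets, 1 was lowest at 4 h (7.17, with 7.18 at 2 h) and 1 was highest at 6 h (7.21, with 7.05 at 7 h). In a straight-line fit over the 7 treated arrays from 1 to 7 h, made across 11865 expressed genes with limma and adjusted by Benjamini-Hochberg, all 6 slopes were positive and past an adjusted p of 0.05. Over all genes tested 16.6% rose by that rule. The median slope of the 6 was 0.21 log2 units per hour and that of all genes tested was 0.00. The controls do not enter this fit. In arrays of whole cultures, a change in the share of cells that express a gene and a change in RNA per cell cannot be told apart.

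EXO1, the 5′ to 3′ exonuclease that extends the single-stranded tail at a break, had the steepest slope. On the treated arrays its log2 intensity was 7.13, 6.88, 6.78, 7.51, 8.37, 8.61 and 9.01 at 1 to 7 h and 8.42 after 24 h, against control levels of 8.27 at 0 h and 7.04 at 24 h. The 4 arrays from 4 h on all lay above the first 3, and from 5 h on they were also above both controls. Its slope was 0.38 ± 0.06 per hour (SE, n = 7 arrays, limma adjusted p = 0.00321). EXO1 was also the only 1 of the 6 that was lower at 24 h than at 7 h in treated cells, by 0.59 on the log2 scale.

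BRIP1, the helicase FANCJ that binds BRCA1 and unwinds structured DNA at forks, stood at 6.46, 5.93, 6.20, 6.46, 7.40, 7.64 and 8.15 at 1 to 7 h and at 8.29 after 24 h in treated cells, against control levels of 7.95 at 0 h and 6.66 at 24 h. The first 4 h were below both controls and only the 7 h and 24 h arrays were above both. Its slope was 0.35 ± 0.06 per hour (limma adjusted p = 0.00530). The second probe set ran in parallel, from 4.97 at 2 h to 6.91 at 7 h, with a slope of 0.30 ± 0.05, and the pair correlated at r = 0.98 over the 10 arrays. It crossed the controls earlier, with 5.69 at 4 h and 6.48 at 6 h against 5.45 in the 24 h and 6.44 in the 0 h control.

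BLM, the RecQ helicase mutated in Bloom syndrome that acts in end resection and resolves joined chromatids, was level over the first 3 h. Treated cells had 6.39, 6.35, 6.38, 6.79, 7.27, 7.41 and 7.61 at 1 to 7 h and 7.73 after 24 h, against control levels of 7.68 at 0 h and 6.40 at 24 h. The first 3 treated arrays were within 0.05 of the 24 h control and all later ones were above it. Its slope was 0.24 ± 0.03 per hour (limma adjusted p = 0.00161).

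FANCI, the partner of FANCD2 that receives ubiquitin when a fork stalls, had 7.52, 7.16, 7.32, 7.72, 8.13, 8.09 and 8.28 at 1 to 7 h and 9.11 after 24 h in treated cells, against control levels of 8.85 at 0 h and 7.44 at 24 h. It levelled off between 5 and 7 h, below the 0 h control, and was 0.83 higher at 24 h than at 7 h. Its slope was 0.18 ± 0.04 per hour (limma adjusted p = 0.00871). The other probe sets had smaller slopes of 0.12 ± 0.03 and 0.09 ± 0.03. When each probe set was tested on its own, these had adjusted p-values of 0.0444 and 0.0621.

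BRCA1, the ubiquitin ligase subunit that promotes resection and brings PALB2 and BRCA2 to the break, had 7.95, 7.47, 7.63, 7.60, 8.15, 8.38 and 8.64 at 1 to 7 h and 8.83 after 24 h in treated cells, against control levels of 8.69 at 0 h and 7.69 at 24 h. Its 1 h level was above the 24 h control, the next 3 were below it and the later ones above it. The slope was 0.16 ± 0.05 per hour (limma adjusted p = 0.0341). Its second probe set had a slope of 0.11 ± 0.03, and 0.0541 was its adjusted p when each probe set was tested on its own.

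RAD51AP1, which helps the broken strand pair with its template, had 9.29, 9.07, 8.87, 9.10, 9.48, 9.59 and 9.93 at 1 to 7 h and 10.63 after 24 h in treated cells, against control levels of 10.38 at 0 h and 9.35 at 24 h. The first 4 h were below both controls, hours 5 to 7 lay between them and the 24 h array was above both. The slope was 0.13 ± 0.04 per hour (limma adjusted p = 0.0440), and its adjusted p was 0.0561 when each probe set was tested on its own. Leaving out 1 array gave RAD51AP1 slopes from 0.08 (without 7 h) to 0.19 (without 1 h). The slopes of BRCA1 and RAD51AP1 did not pass when the 2, 3, 5, 6 or 7 h array was left out (adjusted p from 0.0586 to 0.166 for BRCA1 and from 0.0530 to 0.224 for RAD51AP1), while those of EXO1, BRIP1, BLM and FANCI passed without any 1 of the 7 arrays.

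**Figure D1:**
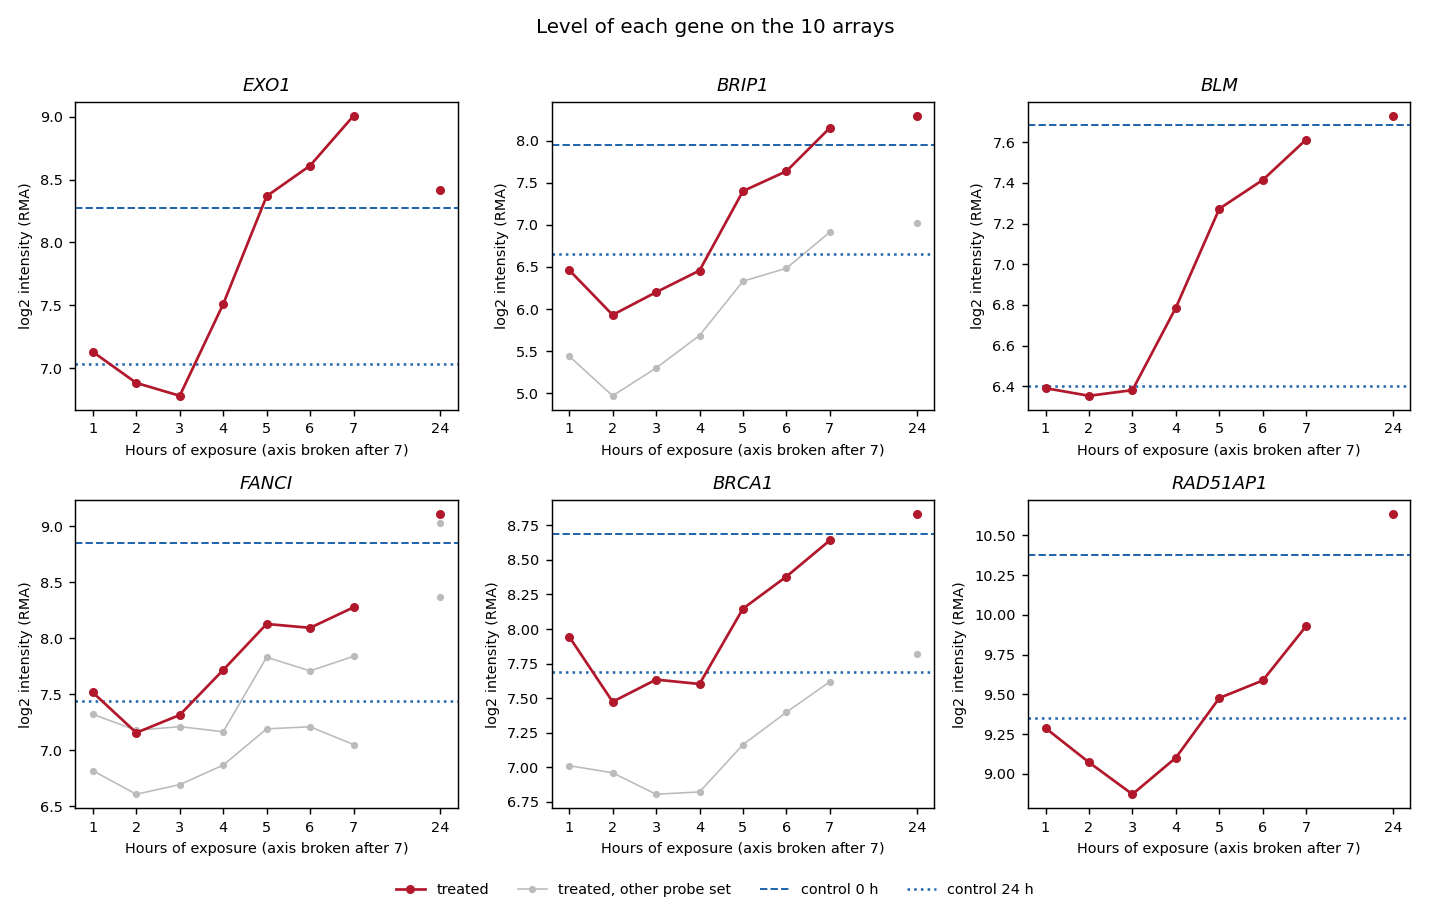
Log2 intensity (RMA, y axis) of each of the 6 genes at each hour of exposure (x axis). Red points are the treated arrays on the probe set used for the gene, grey points its other probe sets, and the blue lines give the red probe set's level in the 0 h control (dashed) and the 24 h control (dotted). The red points are lowest at 2 or 3 h, and at 24 h every red point is above both lines.

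The rise did not begin at the level of the 0 h control. With the 0 h control entered as hour 0, slopes ranged from -0.00 in RAD51AP1 to 0.21 in EXO1, and 0 of the 6 passed, while 3.76% of all genes rose in that fit. A bend in the course, tested as a squared term in hour, was positive for all 6 (0.02 to 0.08) and passed for none (limma adjusted p from 0.105 to 0.624), with 3 of 6 at an unadjusted p under 0.05. Over all 11865 genes tested 0.0927% passed with a positive bend, and 2081 had an unadjusted p under 0.05 in either direction. From 1 to 2 h all 6 genes differed by negative amounts, from -0.04 in BLM to -0.53 in BRIP1, on the array noted above as compressed. After cyclic loess scaling of the arrays these differences were 0.06 in BLM and -0.10 to -0.43 in the others.

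Hours 4 to 7 were then set against hours 1 to 3, as windows of 4 and 3 treated arrays in a fit of 9 arrays that also held the 2 controls and left out the 24 h treated array. All 6 genes were higher in the later window, with a median change of 0.81 against 0.03 over all genes. Of the 6, 2 passed the threshold, against 12.2% of all genes tested that rose. The standard errors of this fit also take in the gap between the 2 controls, which is not a change between the windows. Leaving out either control kept each of the 6 changes the same and made its standard error smaller. EXO1 averaged 8.37 ± 0.63 at 4 to 7 h (SD, n = 4) and 6.93 ± 0.18 at 1 to 3 h (SD, n = 3), a rise of 1.44 ± 0.35 (SE, limma adjusted p = 0.0254). BLM averaged 7.27 ± 0.35 and 6.38 ± 0.02 in the same windows, a rise of 0.90 ± 0.27 (limma adjusted p = 0.0476). BRIP1 came next at 1.21 ± 0.39 (adjusted p = 0.0548), then FANCI at 0.72 ± 0.28 (0.0924), BRCA1 at 0.51 ± 0.27 (0.205) and RAD51AP1 at 0.45 ± 0.25 (0.216). When each probe set was tested on its own in limma, the second of BRIP1 passed at 1.12 ± 0.29 (adjusted p = 0.0338). In that test EXO1 passed (0.0276) and BLM did not (0.0511). On the probe sets used, the arrays of the 2 windows did not overlap for EXO1, BLM and FANCI, against 22.6% of all genes that had every later array above every earlier one. They overlapped on another FANCI probe set (7.17 at 4 h, 7.18 at 2 h) and not on the second of BRIP1 (5.69 at 4 h, 5.44 at 1 h). The count of 2 became 0 when the array of 1, 2, 5, 6 or 7 h was left out, 1 when that of 3 h was, 3 when that of 4 h was and 4 when either control was. The share of all genes that rose moved as well, to 4.16%, 0.00843%, 14.7%, 11.5%, 3.22%, 2.58% and 5.52% without the arrays of 1 to 7 h in turn and to 16.8% without either control.

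Against the controls the answer depended on which control was used. Averaged over the 2 controls, the first 3 h were lower for all 6 genes, from -0.50 ± 0.33 in BRCA1 to -1.11 ± 0.46 in BRIP1, with a median of -0.76 against -0.04 over all genes. None passed in limma (adjusted p from 0.149 to 0.354), and 1.12% of all genes fell past the threshold. At an unadjusted p under 0.05 there were 3 of the 6, and 2851 of all 11865 genes tested in either direction. On the probe sets used, RAD51AP1, BLM and BRIP1 had all 3 early arrays below both controls, as did 19.8% of all genes. The other FANCI probe sets did too, with highest early levels of 7.32 and 6.82 against 7.43 and 6.93 in the 24 h control. Without either control, the control arm is 1 array and not a replicated control, so only the size of the change is given. Without the 24 h control all 6 genes were lower. The changes were -1.75 in BRIP1, -1.52 in FANCI, -1.34 in EXO1, -1.31 in BLM and -1.30 in RAD51AP1, and smallest in BRCA1. Without the 0 h control the 6 values were between -0.46 and -0.00.

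Hours 4 to 7 gave changes against the 2 controls from -0.34 ± 0.28 in RAD51AP1 to 0.72 ± 0.40 in EXO1. Of the 6, 4 were positive and 2 negative and none passed (limma adjusted p from 0.260 to 0.995), while 13.8% of all genes passed in either direction. At an unadjusted p under 0.05 there were 0 of the 6 and 3529 of all 11865 genes tested. The sign turned with the control for BRCA1, BRIP1, BLM, FANCI and RAD51AP1. FANCI, for example, stood 0.62 above the 24 h control alone and at -0.80 against the 0 h control alone. Both again set treated windows against 1 array and not a replicated control, so only the size of the change is given for FANCI. Against the 0 h control alone 6.95% of all genes passed as lower, a share that rests on that 1 array. Over all 10 arrays, treated against control gave values from -0.37 ± 0.40 in RAD51AP1 to 0.18 ± 0.58 in EXO1, and none of the 6 passed (adjusted p from 0.719 to 0.974, and 0 of 6 at an unadjusted p under 0.05), against 0.0506% of all genes.

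**Figure D2:**
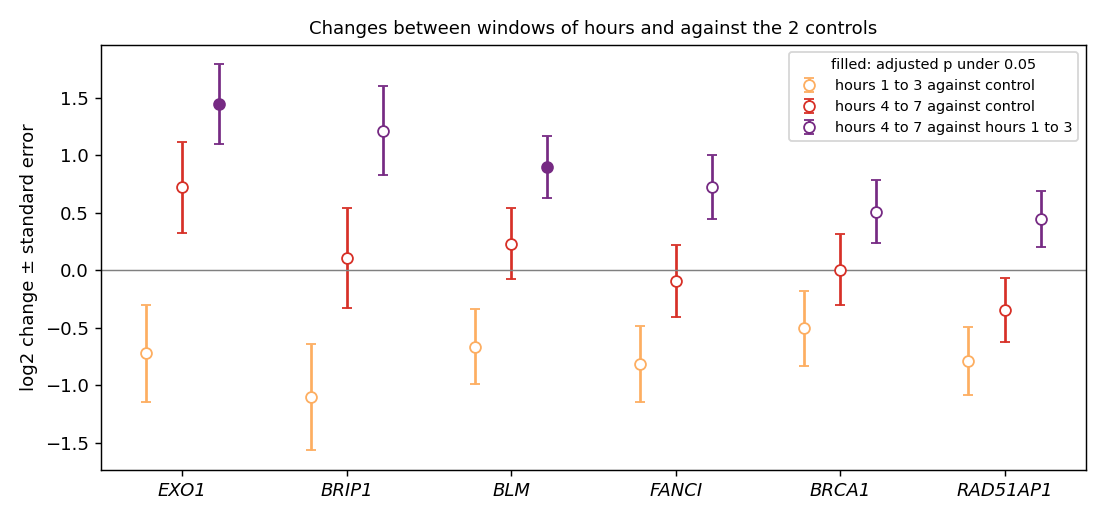
Log2 change with its standard error (y axis) of each gene in 3 limma comparisons over 9 arrays. Filled points passed an adjusted p of 0.05, which were EXO1 and BLM between the windows. The comparisons with control lie below 0 in the first 3 h and run from -0.34 in RAD51AP1 to 0.72 in EXO1 at 4 to 7 h.

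The controls themselves differed. All 6 genes were lower in the 24 h control than at 0 h, with log2 differences of -1.42 in FANCI, -1.29 in BRIP1, -1.28 in BLM, -1.24 in EXO1, -1.02 in RAD51AP1 and just past -1 in BRCA1, and 1.48% of all genes differed by -1 or less. The controls differed by less on the second probe set of BRCA1, at -0.64, and on that of BRIP1, at -0.997, both short of that size. Hour by hour, the median of the 6 genes began near the 24 h control and at 7 h stood near the 0 h control. Relative to the 24 h control, the median difference of the 6 genes over hours 1 to 7 ran 0.03, -0.25, -0.19, 0.10, 0.72, 0.83 and 1.08. Relative to the 0 h control it ran -1.22, -1.36, -1.50, -1.11, -0.54, -0.31 and -0.06 over the same hours. All 6 genes were below the 0 h control through 4 h, and at 7 h EXO1 was 0.73 and BRIP1 0.20 above it while FANCI was still at -0.58. The other FANCI probe sets were nearer the 24 h control at 7 h. They had 7.84 and 7.05, against 7.43 and 6.93 in the 24 h control and 8.63 and 8.03 at 0 h. From 5 h on all 6 were above the 24 h control. The median difference of all genes tested was between -0.12 and 0.02 at these hours, and it was -0.12 at 2 h against the 0 h control.

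**Figure D3:**
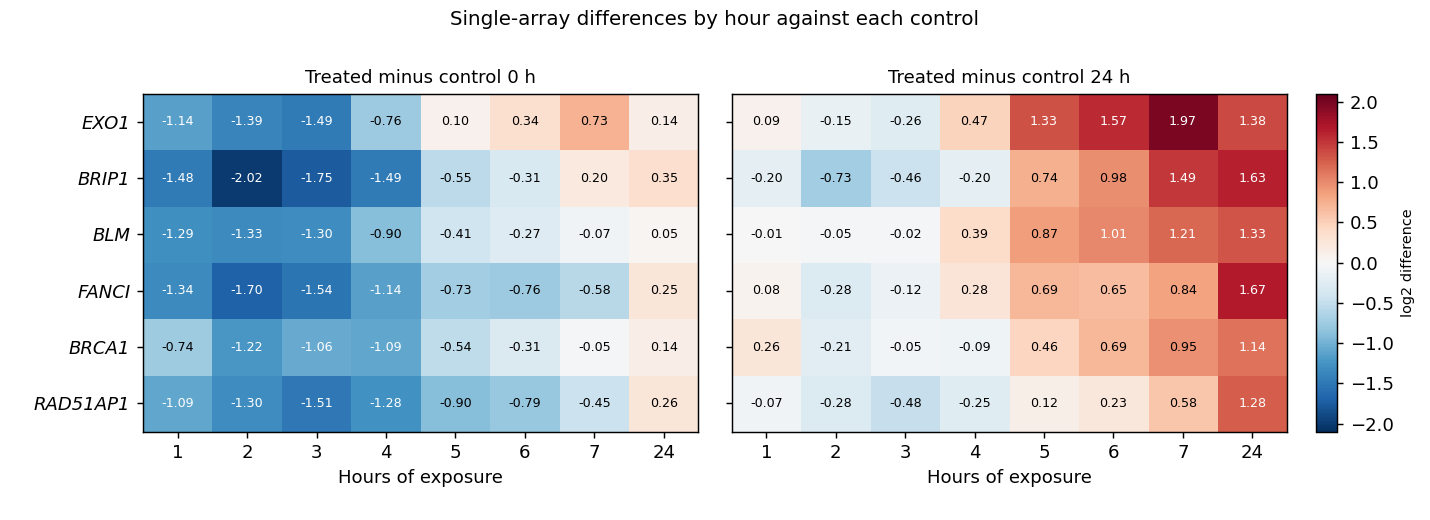
Log2 difference of each treated array from the 0 h control (left) and the 24 h control (right), by gene (rows) and hour of exposure (columns). On the left the first 4 h are negative for every gene, and on the right the columns from 5 h on are positive for every gene.

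At 24 h all 6 genes, on the probe set used for each, were 2-fold or more higher in the treated array than in the control of the same hour. The difference was 1.67 in FANCI, 1.63 in BRIP1, 1.38 in EXO1, 1.33 in BLM, 1.28 in RAD51AP1 and 1.14 in BRCA1, or 3.18-fold to 2.21-fold, while 2.24% of all genes differed by 1 or more. BRCA1 passed that size on 1 of its 2 probe sets, and the other had 7.82 in treated and 6.98 in control cells, a difference of 0.84 or 1.79-fold. Against the 0 h control the same array was higher by 0.05 in BLM to 0.35 in BRIP1, and 0 of the 6 reached 1, as 0.464% of all genes did. These are differences of single arrays and carry no test. The treated cells at 24 h had the highest level of the 10 arrays for BRCA1, BRIP1, BLM, FANCI and RAD51AP1, and EXO1 had its highest at 7 h.

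The other genes of the pathways moved in part. Of 39 further recombination genes tested, 18 rose and 1 fell over the 7 h in the slope fit, with a median slope of 0.06, where 16.6% of all genes rose. FIGNL1, an ATPase of recombination, rose by 0.37 ± 0.04 per hour (limma adjusted p = 0.00121), RAD54B, a motor protein of strand exchange, by 0.32 ± 0.07 and RMI1, a subunit of the BLM complex, by 0.28 ± 0.04. ATM, the kinase that signals breaks, fell by 0.06 ± 0.02 (adjusted p = 0.0338). At the low end MUS81, a nuclease of joined molecules, had -0.09 ± 0.03 and RAD51B, a subunit of a recombination mediator complex, -0.08 ± 0.03, neither past the threshold (adjusted p = 0.0535 and 0.0538).

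Of 19 further Fanconi genes tested, 11 rose and 0 fell, with a median slope of 0.12, against the same 16.6%. UBE2T, the enzyme that supplies ubiquitin to FANCI and FANCD2, rose by 0.26 ± 0.04 per hour (limma adjusted p = 0.00370), FANCE of the core complex by 0.25 ± 0.05 and RFWD3, a ubiquitin ligase of the pathway, by 0.23 ± 0.04. WDR48, the cofactor of the enzyme that removes the ubiquitin again, had a slope of -0.03 ± 0.02 (adjusted p = 0.340). FAN1, a nuclease, had -0.05 ± 0.02 and ERCC1, of the nuclease that cuts at crosslinks, -0.02 ± 0.02 (adjusted p = 0.135 and 0.379).

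End joining ligates breaks without a template. Of 16 of its genes tested, 3 rose and 0 fell, a share near the 16.6% of all genes, and the median slope was 0.02. POLQ, the polymerase of theta-mediated joining, rose by 0.15 ± 0.04 per hour (limma adjusted p = 0.0189), RIF1, which shields ends from resection, by 0.12 ± 0.03 and PAXX, a Ku-binding factor, by 0.08 ± 0.02. PRKDC, the catalytic subunit of DNA-PK, had -0.03 ± 0.02 and LIG4, the ligase, -0.04 ± 0.03, and neither passed (adjusted p = 0.178 and 0.343). In the 24 h pair 6 of the 39 further recombination genes, 2 of the 19 Fanconi genes and 0 of the 16 end-joining genes were higher by 1 or more, with medians of 0.38, 0.38 and 0.20, where 2.24% of all genes were.

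Some genes of the cell cycle rose in the same fit, and their part in the result was not tested. Of 15 replication licensing genes 11 rose in the slope fit, where 16.6% of all genes rose. Their median was 0.31, and their largest slope was 0.66 ± 0.05 in ORC1. Of 20 G2/M genes 10 rose and 1, TOP2A, fell, with a median of 0.09, and the other 9 did not pass. Between hours 4 to 7 and hours 1 to 3, 10 of 15 licensing genes rose and 0 of 20 G2/M genes passed in limma, where 12.2% of all genes rose. Their median changes were 1.16 and 0.30. At an unadjusted p under 0.05 there were 5 of the 20 G2/M genes and 4271 of all 11865 genes tested. In the 24 h pair the medians were 1.29 for licensing and 1.34 for G2/M genes against 1.35 for the 6 repair genes. Within the 6, on the probe sets used, EXO1 passed the 0 h control by 5 h and BRIP1 at 7 h. At 7 h BRCA1, BLM, RAD51AP1 and FANCI stood at -0.05, -0.07, -0.45 and -0.58 against it, and all were above it on the 24 h array. No array lies between 7 and 24 h.

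**Figure D4:**
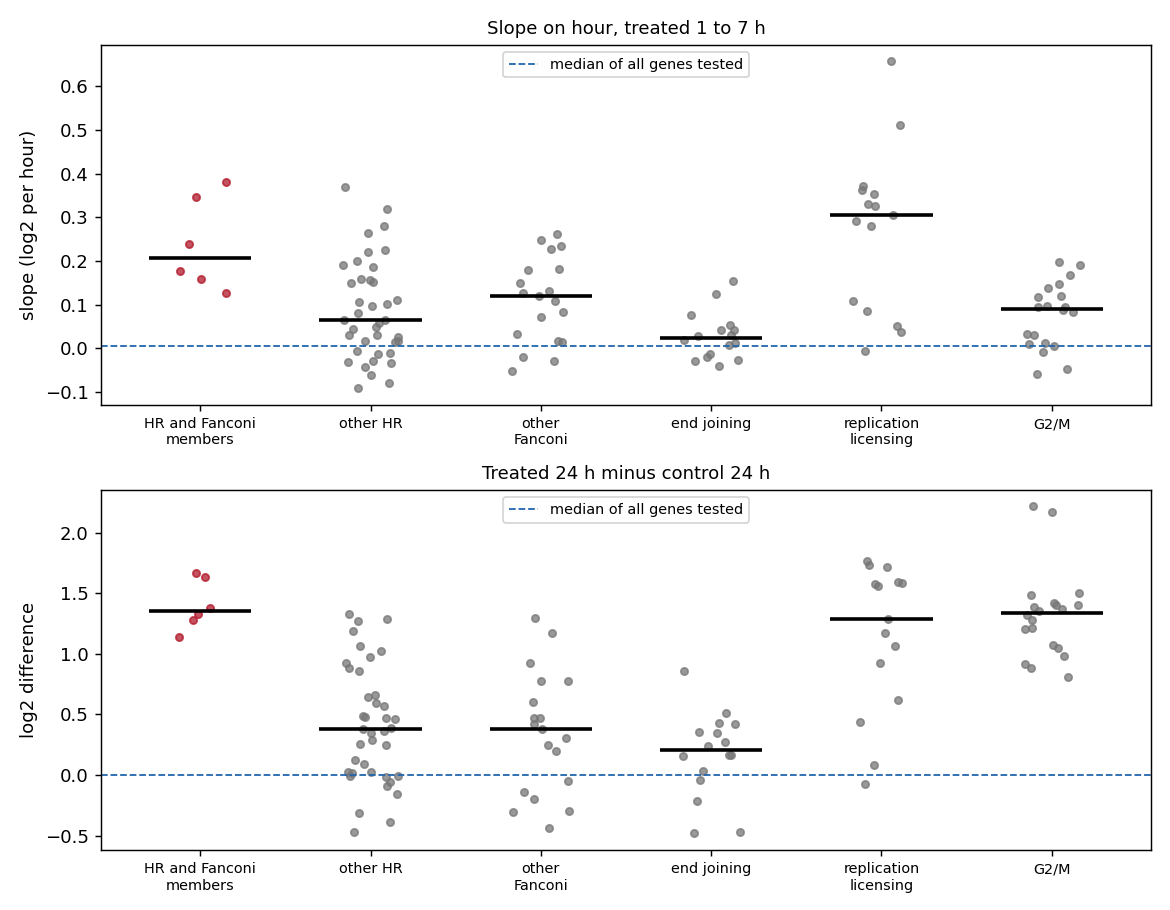
Slope on hour over the 7 treated arrays from 1 to 7 h (upper panel, log2 per hour) and difference between the 24 h treated and the 24 h control array (lower panel, log2), with 1 point per gene. Black bars are medians of a list and the dashed line is the median of all 11865 genes tested. The 6 repair genes (red) have a median slope of 0.21 and a median difference of 1.35.

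Over the 10 arrays the 6 genes correlated with each other at r from 0.73 to 0.97 (15 pairs, median 0.93). The genes most like their mean course, by Pearson's r over the same 10 arrays, were STIL (0.993), a centriole assembly factor, CDCA2 (0.991), which targets a phosphatase to chromosomes, SHCBP1 (0.989), a spindle midzone protein, and WDHD1 (0.989), which couples the helicase to DNA polymerase at the fork. ACD, a telomere protein, TOPBP1, which activates the ATR kinase at stalled forks, RFC3, a subunit of the clamp loader, and TMPO, a protein of the nuclear lamina, followed at 0.985 to 0.986. These correlations describe arrays that share their time order and controls.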

How the data were processed

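Log2 intensities of 54675 probe sets on 10 arrays were used as deposited. The authors made them with RMA, per the submitters' processing notes, and its version is not given in the sources used here. A deposited table of 7622 filtered probe sets held the same log2 values within 5e-09 and served as an alternative. The platform annotation gave 1 symbol to 41097 probe sets, several to 1801 and none to 11777. For each of 19775 genes the probe set with the highest mean was used, and the 11865 genes at or above the 40th percentile of gene means (5.79) were tested. All 10 probe sets of the members carried the RefSeq gene identifier of their symbol.

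In limma 3.58.1 (R 4.3.3), linear models (lmFit) with moderated variances (eBayes) were tested two-sided at a threshold of 0.05 after Benjamini-Hochberg adjustment over all genes tested, with 5 residual degrees of freedom for slopes, 6 for windows and 8 for all arrays. The fits were tested on simulated data. Differences between single arrays were counted at a log2 size of 1. No depth applies to arrays, and their number limits the precision. Array scaling is relative, so a level is not an amount of RNA.

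The members and gene lists were chosen with earlier results of these data known. All members were named, and other genes were taken from the 3 largest and 3 smallest slopes of each list. Results on some items are not reported here. The 8 genes of highest correlation with the members' mean were named too. Tables and plots were made with Python 3.11.15, pandas 2.3.3, numpy 2.4.6 and matplotlib 3.10.9.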

Additional observations from a re-analysis of the deposited data

How the results depend on the processing

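The 6 rising slopes kept their direction under each alternative except the one that adds the 0 h control as hour 0, where 0 passed and RAD51AP1 turned to -0.0023. Of the 6, 4 to 6 passed when 1 array was left out, 4 with no filter, 4 with hour on a log2 scale, 5 after cyclic loess scaling and 4 of 4 tested with a filter at the 60th percentile. The share of all genes that rose in these fits was 8.45% to 15.8%, 7.33%, 14%, 15.9% and 23.6% in turn. For hours 4 to 7 against hours 1 to 3 the count of 2 was 1 with no filter, 1 with a filter at the 60th percentile (4 members tested), 1 after cyclic loess scaling, 1 with an intensity trend and a robust prior, 3 with probe sets averaged per gene, 4 in the filtered table (where 30.9% of all genes rose) and 0 to 4 when 1 array was left out. Of all genes 5.92%, 15.9%, 9.58%, 12.9% and 12.2% rose under the settings named before the filtered table, in turn. When 1 array was left out, 0.00843% to 16.8% rose. Leaving out any 1 treated array gave 0 members for hours 1 to 3 and for hours 4 to 7 against control. In those fits 0.0253% to 2.94% of all genes fell at hours 1 to 3. At hours 4 to 7, 3.72% to 8.49% rose and 2.52% to 6.78% fell. The bend passed for 1 member, RAD51AP1, with an intensity trend and a robust prior (adjusted p = 0.0363), and for 0 otherwise. With that prior 1.1% of all genes passed with a positive bend. Of the 6 genes, 6 were higher by 1 or more in the 24 h treated array than in the 24 h control and 0 than in the 0 h control. The 24 h control was lower than the 0 h control by that size in 6. Of all genes 2.24%, 0.464% and 1.48% passed in turn. Under every alternative run, including a size of 0.5, these 3 counts of members were within 1.5 times their main value. Only 4 members were tested with a filter at the 60th percentile, and the shares of all genes under the alternatives are not given here.

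Signs in the comparisons with control turned with the control that was left out, which by construction changes the baseline, and for BLM, BRCA1, BRIP1 and FANCI also without some treated arrays. For hours 4 to 7 against control the range over arrays left out was -0.41 to 0.87 for BLM, -0.50 to 0.50 for BRCA1, -0.54 to 0.75 for BRIP1, -0.80 to 0.62 for FANCI and -0.85 to 0.17 for RAD51AP1. For treated against control it was -0.69 to 0.59 for BLM, -0.61 to 0.39 for BRCA1, -0.88 to 0.41 for BRIP1, -0.43 to 0.80 for EXO1, -0.94 to 0.48 for FANCI and -0.88 to 0.14 for RAD51AP1. The bend, fitted without controls, turned sign in 2 genes without the 1 h array and ranged from -0.0036 to 0.0487 for BLM and from -0.0289 to 0.0471 for FANCI. BRCA1 at 4 to 7 h was -0.0202 with the mean of its probe sets and -0.0447 on its second probe set, and BRIP1 in treated against control was 0.0721 on its other probe set. The cause was not tested. Background correction and scan batches were not run, since scanner files were not used here. No paired analysis was possible, since 24 h is the only time that treated and control arrays share, with 1 array each.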
